A study of Homo sapiens with 16 samples.

Results

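The genes described here encode the core of the human RNA interference machinery: DROSHA and DGCR8, XPO5, DICER1 and TARBP2, AGO1, AGO2 and AGO3, and TNRC6A and TNRC6B. They were taken by symbol from the 58787 Ensembl genes of the deposited count table. All 10 were found, and all 10 were expressed enough to be tested among 14193 genes. The cells were IMR32, a human neuroblastoma line with amplified MYCN, and the column names of the table also carry a time of 48 h. Each of 3 siRNAs against TPX2 (si45, si46 and si47), a mitotic spindle protein, was given to 4 replicates, and a non-targeting siRNA (siNTC) to 4 more, which makes 16 libraries. All 16 libraries, the controls included, therefore come from cells that received an siRNA, and no untransfected cells were analysed here, so no value here describes the transfection itself. IMR32 is a single cell line, the labels give no siRNA dose, and they do not say whether replicates were separate cultures, so p-values measure the spread between these libraries.

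MicroRNAs are cut from long primary transcripts in the nucleus by the Microprocessor, in which the RNase III enzyme DROSHA acts with its RNA-binding partner DGCR8. XPO5 (exportin-5) carries the resulting hairpin precursor to the cytoplasm, where DICER1, helped by TARBP2, trims it to a short duplex that is loaded into an Argonaute protein. A transfected siRNA enters at this last step and needs neither the Microprocessor nor XPO5. AGO2 is the Argonaute that slices a fully matched target, as an siRNA requires, while all Argonautes can recruit the TNRC6 (GW182) scaffold proteins, which bring deadenylases to the target transcript.

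The DGCR8 gene holds hairpins of its own, which the Microprocessor is known to cut in the DGCR8 transcript. These hairpins are shown because DGCR8 was the member whose difference from the controls passed the test described below. Mature microRNAs of 2 such hairpins were found within DGCR8 on the same strand (RefSeq sequences, GRCh38.p14, written 5′ to 3′ with the seed, bases 2 to 8, in capitals). miR-3618 (chr22:20085797-20085818) lies in an untranslated part of an exon in GENCODE v29, and both arms of miR-1306 (chr22:20086072-20086093 and chr22:20086112-20086129) lie in its coding sequence.
hsa-miR-3618: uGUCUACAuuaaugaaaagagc
hsa-miR-1306-5p: cCACCUCCccugcaaacgucca
hsa-miR-1306-3p: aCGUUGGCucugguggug
No 2 of these share a seed. The count table had 0 reads for the genes MIR3618 and MIR1306 in every library, and the 3' end libraries used here are not a measure of mature microRNAs.

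Library totals ran from 5318159 to 7864343 counts. Levels are given as CPM, read counts scaled to a common library size. TPX2 averaged 327 CPM in siNTC and 91.6, 81.7 and 71.5 CPM under si45, si46 and si47, and every knockdown library lay below every control. Si45 replicate 3 had the most TPX2 of the knockdown libraries (121 CPM). Of 10 adrenergic neuroblastoma markers, 9 reached 10 CPM in at least 1 library and TH did not. The epithelial marker list summed to at most 9.65 CPM in a library, and the glial, immune and endothelial lists each to at most 2.57 CPM, with CD3E and LYZ at 0 throughout. The mesenchymal list summed to 250.4 to 315 CPM in all 4 groups, nearly all of it TWIST1 and COL1A1.

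Of the 10 genes, the difference from the controls that passed the test was a fall of DGCR8, the RNA-binding subunit of the Microprocessor. In bulk RNA, fewer cells of a kind and less RNA per cell cannot be told apart. In the comparison of the mean of the 3 siRNAs with siNTC, 1 of 10 members was called at an adjusted p under 0.05 (edgeR quasi-likelihood test, Benjamini-Hochberg over 14193 genes). Of all genes tested, 7.14% were called in that comparison (3.53% lower and 3.61% higher), so a single member called lower does not set these genes apart. The median log2 fold change of the 10 members was -0.0018, beside -0.0011 for all genes. Their median absolute change was 0.067 on the log2 scale and that of all genes 0.166. The members had 77 counts or more in every library, whereas all genes tested include some near the minimum count of 10. The medians were not matched for count, so they do not show that the members were steadier than other genes. DGCR8 was also the 1 of 10 called under si47, where 9.74% of all genes were called (4.83% lower and 4.91% higher). edgeR called 0 of 10 under si45, with 1.34% of all genes called (0.324% lower and 1.01% higher). It called 0 of 10 under si46, with 3.4% called (1.25% lower and 2.14% higher). DESeq2 and limma-voom also called 0 members under si45 and si46, where edgeR had 2 members each at an unadjusted p under 0.05, AGO1 and DGCR8 under si45 and DROSHA and DGCR8 under si46. The share of all genes at that unadjusted threshold is not given here. Counts at it, for members or for the lists below, therefore do not show that these genes stand out.

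**Figure D1:**
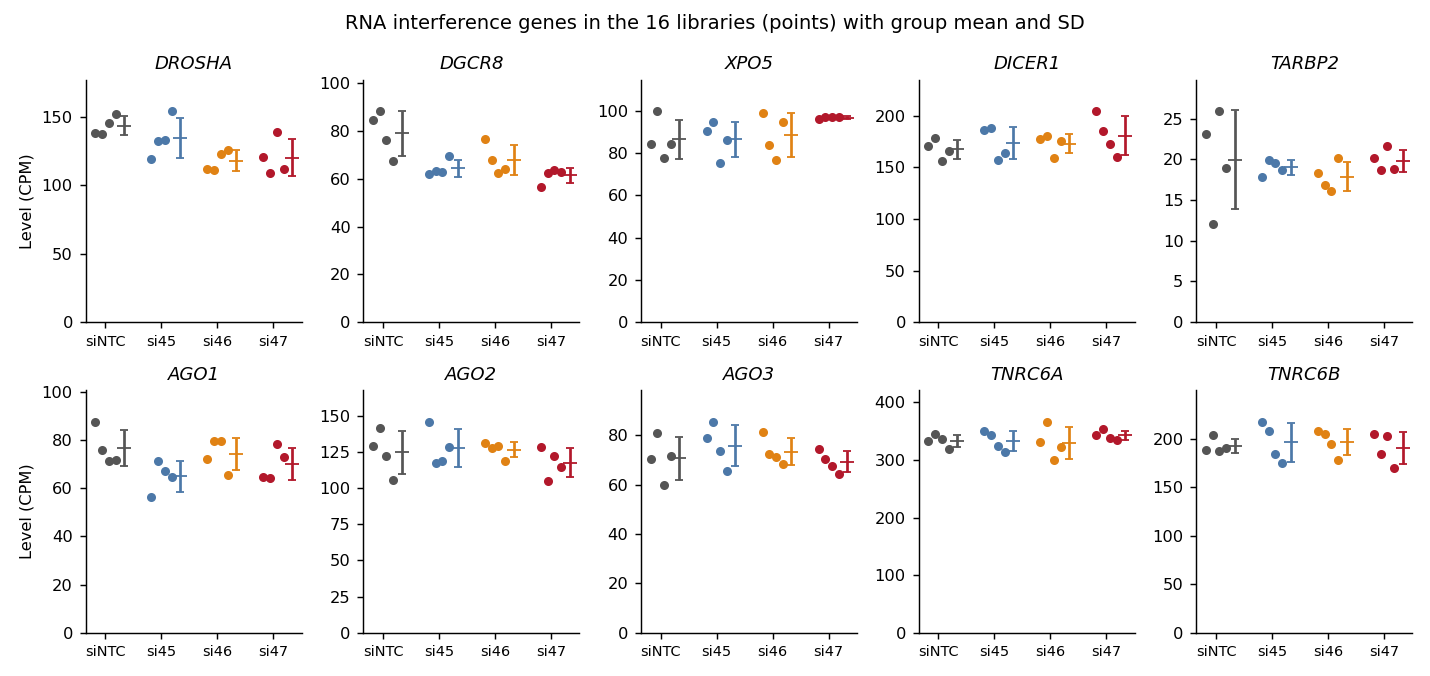
Level of each of the 10 genes in CPM (axis from 0) in each library, by siRNA group, with the group mean and SD beside the 4 points. DGCR8 points of si47 (56.7 to 63.9 CPM) lie under all siNTC points (67.3 to 88.2 CPM). DROSHA points of si46 (111 to 126 CPM) also lie under all siNTC points (137 to 152 CPM). For TNRC6A, TNRC6B, DICER1 and AGO1 to AGO3 each group overlaps the controls.

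DGCR8 (ENSG00000128191, chr22:20080232-20111877, plus strand, GRCh38) stood at 84.7, 88.2, 76.0 and 67.3 CPM in siNTC replicates 1 to 4. It was at 61.95, 63.5, 62.8 and 69.6 CPM in si45, at 76.5, 68.0, 62.6 and 63.9 CPM in si46, and at 56.7, 62.2, 63.9 and 63.0 CPM in si47. All 4 si47 libraries lay below the lowest control, as did 3 of 4 si45 libraries and 2 of 4 si46 libraries, and none of the 12 lay above the highest control. Relative to the siNTC mean of 79.0 ± 9.35 CPM (SD, n = 4), the group means were 81.5%, 85.7% and 77.7% for si45, si46 and si47.

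In edgeR's quasi-likelihood test, DGCR8 fell by 0.29 on the log2 scale over the mean of the 3 siRNAs (SE 0.0837, 95% interval -0.46 to -0.12, adjusted p = 0.0251). Under si47 alone it fell by 0.36 (SE 0.104, edgeR adjusted p = 0.0206). The values for si45 (-0.30, SE 0.104, edgeR adjusted p = 0.199) and si46 (-0.22, SE 0.104, edgeR adjusted p = 0.305) did not pass. These values do not show that the siRNAs differed in their effect on DGCR8: none of the direct comparisons of siRNAs was called for this gene, with -0.07 for si47 against si45, -0.14 for si47 against si46 and 0.08 for si46 against si45. The call in the mean comparison held in 14 of 16 fits that each left out 1 library, with log2 values of -0.36 to -0.23. It was lost without siNTC replicate 1 (-0.26, edgeR adjusted p = 0.119) and without siNTC replicate 2 (-0.23, adjusted p = 0.152), the controls with the most DGCR8. Without siNTC replicate 1, 629 of all genes were called in that comparison in place of 1014. The si47 call was lost without siNTC replicate 1, siNTC replicate 2 or si47 replicate 1 (edgeR adjusted p = 0.0717, 0.0936 and 0.0811), at log2 values of -0.33, -0.30 and -0.32. At its 3' end DGCR8 shares 12 bases with TRMT2A on the opposite strand, and whether counting used strand is not given in the sources used here. TRMT2A had at most 143 counts and a log2 fold change of -0.0015 (edgeR adjusted p = 0.997).

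DROSHA (ENSG00000113360, chr5:31400497-31532196, minus strand) is the catalytic subunit. Its controls were close together, at 138, 137, 146 and 152 CPM (mean 143 ± 6.95, SD, n = 4). It stood at 119, 132, 133 and 154 CPM in si45, at 112, 111, 123 and 126 CPM in si46, and at 121, 109, 139 and 112 CPM in si47. All si46 libraries lay below the controls, whereas si45 replicate 4 lay above them and si47 replicate 3 among them. The log2 fold changes were -0.09 (SE 0.0938) under si45, -0.28 (SE 0.0941) under si46 and -0.25 (SE 0.0941) under si47, with edgeR adjusted p of 0.785, 0.0960 and 0.0834. Over the mean of the 3 siRNAs the value was -0.21 (95% interval -0.36 to -0.06, edgeR adjusted p = 0.0885), which did not pass. Without si47 replicate 3 it did, at -0.24 and an adjusted p of 0.0361, and so did the si47 value (-0.33, edgeR adjusted p = 0.0210). Under si47 that fit called 1664 of all genes in place of 1382. DROSHA also passed with a replicate block, in the mean comparison, under si46 and under si47 (edgeR adjusted p = 0.0238, 0.0203 and 0.0250). Its log2 values there were -0.21, -0.28 and -0.26. The labels do not say that a replicate number marks a shared day or batch.

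**Figure D2:**
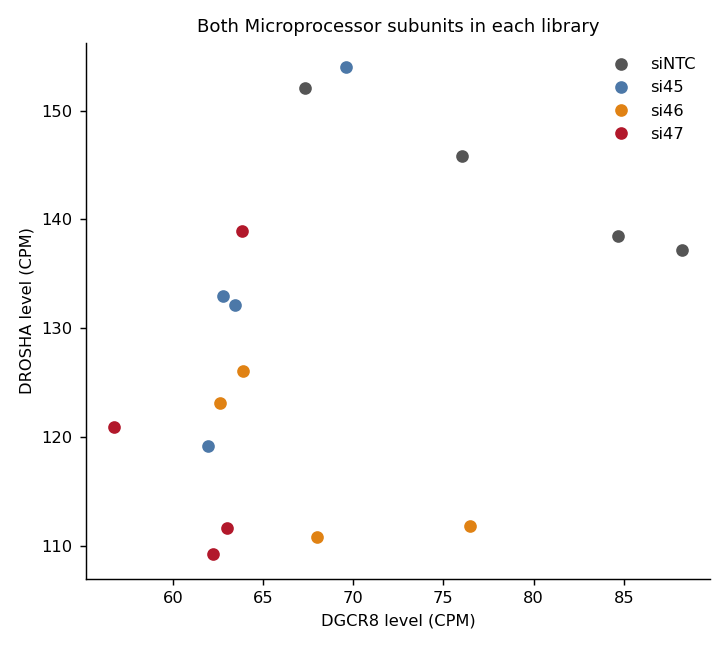
DROSHA against DGCR8, both in CPM on axes that do not start at 0, with 1 point per library coloured by siRNA group. The 4 siNTC libraries lie at 137 CPM of DROSHA or more, and the si47 libraries lie at 63.9 CPM of DGCR8 or less.

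Within the controls the 2 subunits did not move together: siNTC replicate 4 had the most DROSHA and the least DGCR8, and replicate 2 the reverse. The number of DROSHA reads per DGCR8 read averaged 1.84 ± 0.319 in the controls, and 2.08 ± 0.120, 1.76 ± 0.254 and 1.96 ± 0.226 with si45, si46 and si47 (SD, n = 4). The siNTC range of 1.55 to 2.26 takes in every si45 and si47 library and all but 1 of the si46 libraries, which started at 1.46.

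The genes outside the lists whose log2 CPM followed DGCR8 most closely over the 16 libraries were RESF1 (Pearson r = 0.897, Spearman rho = 0.556), EFNA5 (r = 0.866, rho = 0.791), which encodes an ephrin ligand, and NFIB (r = 0.835, rho = 0.665), a transcription factor of the nuclear factor I family. These are the highest of 14193 genes and are given as a description. The libraries share their siRNA groups, and these 3 genes were lower in the mean comparison too, by 0.39, 0.33 and 0.27 on the log2 scale (edgeR adjusted p = 0.00698, 0.00476 and 0.0159).

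For nuclear export, XPO5 (chr6:43522330-43576075, minus strand) ranged from 77.5 to 99.6 CPM in siNTC and from 75.2 to 98.8 CPM in si45 and si46. In si47 its 4 libraries lay within 96.0 to 97.2 CPM, inside the range of the controls. Its log2 fold change was 0.16 under si47 (95% interval -0.04 to 0.37, edgeR adjusted p = 0.352) and 0.07 over the mean of the siRNAs (-0.10 to 0.23, adjusted p = 0.719). POLR1C overlaps XPO5 on the opposite strand over 40090 bases and had at most 270 counts. Its own log2 fold change of 0.29 was not called (edgeR adjusted p = 0.161).

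The dicing step showed no called difference. DICER1 (chr14:95086228-95158010, minus strand) was at 156 to 178 CPM among the controls and at 157 to 204 CPM in the knockdown libraries, of which 5 of 12 lay above the highest control and none below the lowest. The log2 fold change over the mean of the siRNAs was 0.07 (95% interval -0.08 to 0.22, edgeR adjusted p = 0.658), and the values for single siRNAs ran from 0.05 (si46) to 0.11 (si47). TARBP2 (chr12:53500921-53506431, plus strand), a double-stranded RNA binding cofactor of DICER1, was the least abundant member, with 77 to 145 counts per library. Its controls spread from 12.04 to 25.9 CPM and enclosed all 12 knockdown libraries (16.2 to 21.7 CPM). Its interval was the widest of the 10, at -0.37 to 0.22 around -0.08 (edgeR adjusted p = 0.826).

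The Argonautes were next. AGO2 (chr8:140520156-140635619, minus strand), the slicing enzyme, was at 129, 142, 122 and 106 CPM in siNTC, at 118 to 146 CPM in si45, at 119 to 131 CPM in si46 and at 105 to 128 CPM in si47. The ranges overlap throughout, and the log2 fold change over the mean of the siRNAs was -0.01 (95% interval -0.17 to 0.15, edgeR adjusted p = 0.962). AGO1 and AGO3 lie head to tail on the plus strand of chromosome 1 (35869808 to 35930528 and 35930718 to 36072500), with 189 bases between them. AGO1 had controls of 87.4, 75.9, 71.3 and 71.8 CPM and si45 libraries of 56.4, 71.4, 67.3 and 64.7 CPM, where 3 of 4 libraries lay below all controls. Its si45 value of -0.24 (95% interval -0.46 to -0.02) did not pass over all genes (edgeR adjusted p = 0.371). The si46 and si47 values of AGO1 were -0.05 and -0.13, and the mean -0.14 (edgeR adjusted p = 0.383). AGO3 ran from 59.8 to 80.9 CPM in siNTC and from 64.3 to 85.3 CPM in the knockdown libraries, with a mean log2 fold change of 0.04 (95% interval -0.14 to 0.22, edgeR adjusted p = 0.840).

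AGO2 made up 41.6% ± 2.62 of the reads of AGO1 to AGO4 in siNTC (SD, n = 4). It made up 43.0% ± 3.71 in si45, 42.4% ± 0.918 in si46 and 41.5% ± 2.30 in si47, differences smaller than the spread between replicates.

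The scaffold proteins had the highest counts and the tightest estimates. TNRC6A (chr16:24610209-24827632, plus strand) was the most abundant member, with 319 to 345 CPM among the controls, 313 to 351 with si45, 299 to 366 with si46 and 334 to 353 with si47. Its log2 fold change over the mean of the siRNAs was 0.0070 (95% interval -0.12 to 0.14, edgeR adjusted p = 0.969). TNRC6B (chr22:40044817-40335808, plus strand) was at 187 to 204 CPM among the controls and at 170 to 217 CPM in the knockdown libraries, with a value of 0.01 (-0.13 to 0.16, edgeR adjusted p = 0.943). TNRC6A held 56.2% ± 0.266 of the reads of TNRC6A, TNRC6B and TNRC6C in the controls, and 55.1% ± 0.840, 54.9% ± 2.29 and 56.0% ± 1.83 with si45, si46 and si47 (SD, n = 4). All 4 si45 libraries (53.9% to 55.6%) lay below the siNTC range of 55.8% to 56.5%, a difference that was not tested and was computed after the values were seen.

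**Figure D3:**
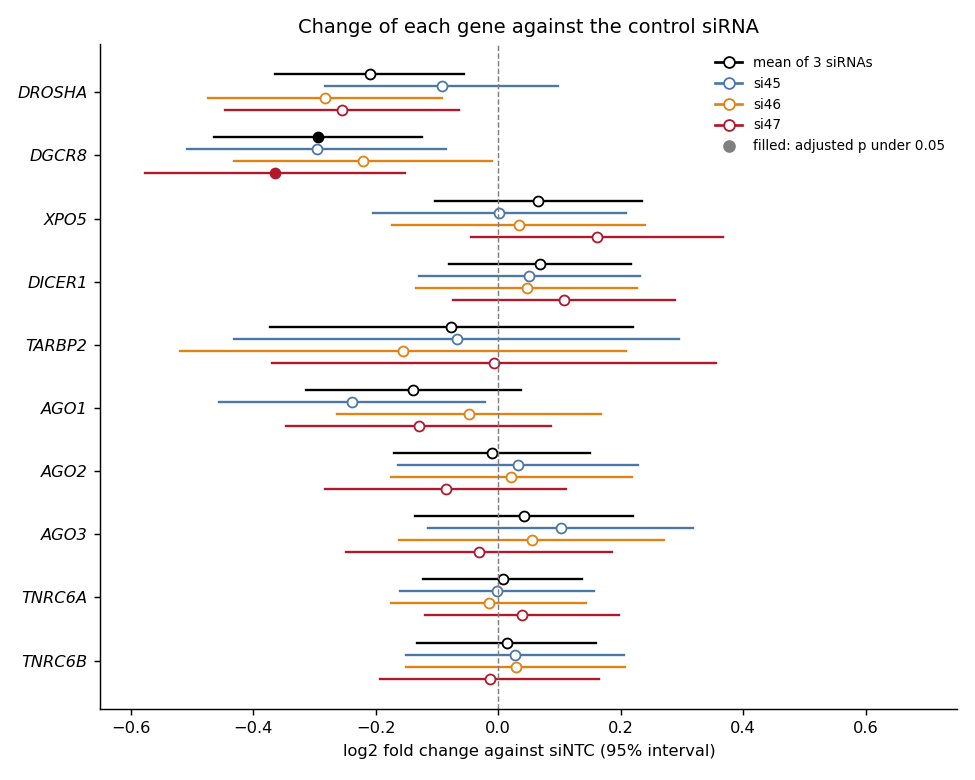
Log2 fold change of each gene against siNTC (points) with its 95% interval (lines) for the mean of the 3 siRNAs and for each siRNA, where filled points have an edgeR adjusted p under 0.05. DGCR8 is filled for the mean (-0.29) and for si47 (-0.36). DROSHA lies to the left of 0 in all 4, but under si45 its interval takes in 0. The intervals of TNRC6A, TNRC6B, AGO2 and AGO3 take in 0, and that of AGO1 under si45 does not.

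Because 3' end reads are counted once per transcript end and are not divided by length, CPM can be set side by side between genes as a rough order of transcript number. By mean level in siNTC the order was TNRC6A (333 CPM), TNRC6B (192), DICER1 (167), DROSHA (143), AGO2 (125), XPO5 (86.4), DGCR8 (79.0), AGO1 (76.6), AGO3 (70.6) and TARBP2 (19.99). The ranges of the 4 controls did not overlap between TNRC6A and TNRC6B, TNRC6B and DICER1, DICER1 and DROSHA, AGO2 and XPO5, or AGO3 and TARBP2. DROSHA and AGO2 overlapped, and so did XPO5, DGCR8, AGO1 and AGO3, whose order is thus not resolved. Over all 16 libraries the highest level of a member was 1.22 (TNRC6A) to 2.15 (TARBP2) times its lowest.

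The siRNAs were also compared with each other. edgeR called 0 of 10 members in each of the 3 comparisons, with 0 at an unadjusted p under 0.05, and DESeq2 and limma-voom also called 0. Of all genes tested, 0.0282% were called for si46 against si45 (0.0141% lower and 0.0141% higher). For si47 against si45 it was 0.169% (0.0986% lower and 0.0705% higher), and for si47 against si46 0.0493% (0.0282% lower and 0.0211% higher). The member values ran from -0.19 to 0.19, from -0.16 to 0.16 and from -0.14 to 0.15 on the log2 scale, with SEs of 0.078 to 0.18. These fits did not pair libraries by replicate number. With a replicate block, 398 genes were called for si47 against si45 in place of 24, and again 0 of 10 members.

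Other genes of the pathway were taken from 4 lists chosen for their function, with earlier results of these data known. Of 17 further core factors, among them AGO4, TNRC6C, PRKRA, the chaperones that load Argonautes and the translin nuclease subunits, all were tested and 0 were called in the mean comparison by edgeR (1 at an unadjusted p under 0.05), where 7.14% of all genes were called. That 1 was MOV10, an RNA helicase that binds Argonautes, at -0.51 (SE 0.224, edgeR adjusted p = 0.183) and 22 to 69 counts per library. The median of the list was -0.04, beside -0.0011 for all genes.

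Of 30 regulators of primary transcripts and precursors, 29 were tested and 0 were called in the mean comparison by edgeR, beside 7.14% of all genes. DESeq2 called 1, ILF2, and limma-voom called 1, KHSRP. The shares of all genes called by DESeq2 and by limma-voom are not given here. In edgeR 7 regulators had an unadjusted p under 0.05, a count with no share of all genes to set beside it. KHSRP, a KH-domain protein that binds the terminal loops of some precursors, had the lowest p. Control libraries averaged 1768 ± 93.4 CPM and si45 libraries 1730 ± 124, whereas the averages were 1386 ± 180 CPM with si46 and 1440 ± 214 with si47 (SD, n = 4). KHSRP fell under si46 by 0.35 (SE 0.0941, edgeR adjusted p = 0.0284) and under si47 by 0.30 (SE 0.0940, edgeR adjusted p = 0.0399), the 1 regulator of 29 called in each, where 1.25% and 4.83% of all genes were called lower, while its si45 value was -0.03 and its mean -0.23 (edgeR adjusted p = 0.0629). The direct comparisons did not separate si45 from the others for KHSRP (edgeR adjusted p = 0.747 against si46 and 0.256 against si47). At log2 values of -0.35 to -0.29, its si46 call was lost without si46 replicate 2 (edgeR adjusted p = 0.145) or 4 (0.123) or siNTC replicate 2 (0.07092), 3 (0.0861) or 4 (0.0855). At -0.29 to -0.25, its si47 call was lost without si47 replicate 1 (0.152), 2 (0.134) or 4 (0.102) or siNTC replicate 2 (0.08450), 3 (0.104) or 4 (0.0979), edgeR adjusted p throughout, and with the si47 and siNTC libraries fitted alone (0.0539).

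Genes linked to the poly(A) tail and cap of transcripts, whose removal from a target is a downstream step of silencing, were the next list. Of 33 listed genes 32 were tested, and 4 rose and 0 fell in the mean comparison, where 3.61% of all genes were called higher and 3.53% lower, while the list's median of 0.03 stayed near that of all genes. BTG2 and TOB1, antiproliferative proteins that bring the CCR4-NOT deadenylase to transcripts and of which BTG2 is a known p53 target, rose most. BTG2 had 7.05, 5.47, 3.40 and 5.38 CPM among the controls, against 13.5 to 18.4 with si45, 12.5 to 17.7 with si46 and 18.7 to 27.8 with si47. TOB1 went from 17.6, 16.6, 22.5 and 18.4 CPM to 38.3 to 61.9, 47.1 to 63.3 and 50.9 to 77.3 CPM. For both, all 12 knockdown libraries lay above all controls. The mean log2 fold changes were 1.75 for BTG2 (SE 0.187, edgeR adjusted p = 5.47e-08) and 1.58 for TOB1 (SE 0.132, edgeR adjusted p = 2.97e-10).

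Smaller rises were those of DCP1B, a decapping cofactor, by 0.59 (SE 0.142, edgeR adjusted p = 0.00698), and of PABPC4, a cytoplasmic poly(A)-binding protein, by 0.28 (SE 0.0659, edgeR adjusted p = 0.00546). In 11 of 12 knockdown libraries each gene exceeded its highest control. With siNTC replicate 3 left out, the PABPC4 value was 0.24 and no longer passed (edgeR adjusted p = 0.0559).

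Under si47 alone, 5 genes of this list were called higher and 1 lower, beside 4.91% and 4.83% of all genes. Besides the 4 above these were DCP2 and PABPC1, which the rule for named genes does not take and which were chosen after their values were seen. DCP2, the catalytic decapping enzyme, averaged 57.4 ± 6.68 CPM among the controls and 41.8 ± 7.80 CPM with si47 (SD, n = 4). On the log2 scale it fell by 0.46 (SE 0.134, edgeR adjusted p = 0.0237). PABPC1, the main cytoplasmic poly(A)-binding protein, averaged 1800 ± 105 CPM among the controls and 2168 ± 132 CPM with si47 (SD, n = 4), a rise of 0.27 (SE 0.0831, edgeR adjusted p = 0.0337). The DCP2 call was lost without replicate 1, 3 or 4 of si47 or replicate 1, 2 or 4 of siNTC, at log2 values of -0.45 to -0.41 (edgeR adjusted p of 0.0558 to 0.0869). The PABPC1 call was lost without replicate 1, 2 or 3 of si47 or replicate 1, 3 or 4 of siNTC, at 0.23 to 0.28 (edgeR adjusted p of 0.0551 to 0.119). In the mean comparison DCP2 was at -0.21 and PABPC1 at 0.15, neither called (edgeR adjusted p = 0.255 and 0.204).

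MicroRNA host genes, whose transcripts the Microprocessor would cut or whose introns carry the hairpins, were the last list. Of 36 listed 30 were tested, with 1 higher and 3 lower in the mean comparison (3.61% and 3.53% of all genes) and a median of -0.08. Their mature 5′ microRNAs are shown to name what these transcripts carry, with seeds in capitals (RefSeq, GRCh38.p14). They lie at chr1:9151735-9151756 on the minus strand (miR-34a, in MIR34AHG), chrX:134546371-134546393 on the minus strand (miR-503, in MIR503HG), chr15:89368032-89368054 on the plus strand (miR-9, in MIR9-3HG), and chr3:160404607-160404628 and chr3:160404754-160404775 on the plus strand (miR-15b and miR-16, in SMC4).
hsa-miR-34a-5p: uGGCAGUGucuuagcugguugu
hsa-miR-503-5p: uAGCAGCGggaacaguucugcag
hsa-miR-9-5p: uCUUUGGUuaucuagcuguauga
hsa-miR-15b-5p: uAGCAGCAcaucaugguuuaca
hsa-miR-16-5p: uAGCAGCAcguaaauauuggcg
miR-15b and miR-16 share the seed AGCAGCA. Several other loci also give rise to miR-9 and miR-16, so the host genes here are not their sole source.

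MIR34AHG, the host of the p53-induced miR-34a, had 3, 1, 3 and 0 counts in the siNTC libraries and 11 to 33 in si45, 12 to 40 in si46 and 18 to 36 in si47. All 12 knockdown libraries lay above all controls. Summed over a group, 74, 106 and 106 counts under si45, si46 and si47 stood against 7 in siNTC. After scaling these were 10.4, 14.5 and 15.1 times higher (exact 95% intervals of 4.81 to 26.8, 6.80 to 37.0 and 7.08 to 38.5, which cover counting error only). It was called in the mean comparison (edgeR adjusted p = 4.31e-05), with a fitted value of 3.63 that depends on the prior count at such low levels. LNCTAM34A, which overlaps it on the opposite strand over 14281 bases, was also called higher, at 3.93 (edgeR adjusted p = 4.60e-04), and if counting ignored strand their reads cannot be told apart.

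MIR503HG fell from 24.6 ± 5.99 CPM in siNTC to 16.4 ± 2.69, 14.8 ± 1.77 and 18.5 ± 4.24 CPM in si45, si46 and si47 (SD, n = 4), a mean log2 fold change of -0.58 (SE 0.149, edgeR adjusted p = 0.0126). SMC4, a condensin subunit, fell from 822 ± 73.2 CPM to 707 ± 29.9, 681 ± 37.4 and 654 ± 52.5 CPM, with -0.27 (SE 0.0650, edgeR adjusted p = 0.00658). MIR9-3HG fell from 39.4 ± 3.48 CPM to 33.05 ± 1.87, 32.4 ± 2.12 and 28.4 ± 4.53 CPM, with -0.34 (SE 0.104, edgeR adjusted p = 0.0431). Below all controls lay 9, 11 and 11 of the 12 knockdown libraries. With single siRNAs, 0 of 30 host genes were called lower under si45, beside 0.324% of all genes. Under si46 it was 1, MIR503HG, beside 1.25%. Under si47 it was 3, SMC4, MIR9-3HG and MCM7, beside 4.83%. MCM7 is not taken by the rule for named genes and was chosen after its value was seen. The MIR503HG call was lost without siNTC replicate 2 (edgeR adjusted p = 0.122) or 4 (0.0780), and the SMC4 call without siNTC replicate 2 (0.0761). The MIR9-3HG call was the least stable: it held in 5 of 16 fits that each left out 1 library (without replicate 3 of si45, si46 or si47, si47 replicate 1 or siNTC replicate 4), and elsewhere the edgeR adjusted p rose to at most 0.178.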

How the data were processed

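The deposited table held raw read counts per Ensembl gene for 16 libraries, made by the authors from single-end 3' end (Lexogen QuantSeq) reads per the labels. STAR 2.7.2b and GRCh38 are named in the submitters' processing notes. The counter, the annotation and strand use are not given in the sources used here. The name of the deposited table holds the word forwarded, whose meaning is not stated. Each column was assigned to the sample with its siRNA and replicate number, and genes to symbols by Ensembl identifier (58434 of 58787 matched). Positions came from GENCODE v29 on GRCh38. No replicate pair agreed within sampling noise (chi-square per degree of freedom 4.36 to 9.80 over 24 pairs).

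The test was that of edgeR 4.0.16 (R 4.3.3) on the counts: filterByExpr (minimum count 10, minimum total 15), TMM scaling, and 1 robust quasi-likelihood fit of 4 group means with no covariate. p-values were adjusted by Benjamini-Hochberg over the 14193 genes tested within each of 7 comparisons, at a threshold of 0.05. Standard errors are the log2 fold change divided by the square root of F, and 95% intervals use the total degrees of freedom. CPM values use TMM library sizes. The comparisons with siNTC share its 4 libraries. The method was tested on simulated data. In the mean comparison it called 84% of genes changed by 1 on the log2 scale and 35.7% of those changed by 0.5. For si45 alone these were 72.3% and 22.4%. The changed genes were drawn from all genes tested, whatever their counts. A gene not called may therefore still have changed by such an amount, unless its own interval leaves that amount out. For the uncalled members the intervals are the closer guide. In the mean comparison the widest of them, that of TARBP2, was -0.37 to 0.22. TPX2 was also compared by a two-sided exact permutation test (p = 0.0286 for each siRNA, the smallest that 4 against 4 libraries allow).

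Same-numbered libraries deviated together over 0.1 in every pair for si45 and si47 (r = 0.12 to 0.242), so the numbers may pair these 2 groups. Between the other groups, same-numbered libraries all correlated positively too (r = 0.0188 to 0.247), but not all over 0.1. The numbers may pair those groups as well, though less clearly. These hints come from the values and not from the labels. The comparison of si47 with si45 reported above did not use that pairing. A replicate block raised its number of genes called from 24 to 398.

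Tried besides were DESeq2 1.42.0, voom of limma 3.58.1, upper-quartile and RLE factors, other low-count filters, only the groups compared, a replicate block and leaving out each library. The 10 genes, the 4 pathway lists and the rule for named genes (all 10, the genes of each list called in the mean comparison or otherwise the one with the lowest p, and the 3 genes outside the lists most correlated with the member of lowest p) were chosen with earlier results of these data known. The ratios between family members were added after the values were seen.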

Additional observations from a re-analysis of the deposited data

Results flagged for a closer look

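Single libraries far from the other 3 of their group were looked for in 56 groups of 4 (the CPM of the 10 genes, the library totals and 3 read ratios within families), where chance gives about 1 in 20, or 2.8. The search found 1. In si45 replicate 1, TNRC6A made up 53.9% of the reads of TNRC6A, TNRC6B and TNRC6C (53.85% before rounding), against 55.5% to 55.6% in the other 3 si45 libraries. The gap was 0.956 of the range of the group.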

How the results depend on the processing

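The fall of DGCR8 passed in edgeR, DESeq2 and limma-voom. Leaving out 1 library moved the number of the 10 genes called from 1 to between 0 and 2 in the mean comparison and under si47 (0 without siNTC replicate 1 or 2 and, for si47, si47 replicate 1; 2 without si47 replicate 3, which added DROSHA). Over all genes, the fit without siNTC replicate 1 called 629 in the mean comparison in place of 1014, the fewest of these fits. Without si47 replicate 3, 1664 were called under si47 in place of 1382, the most. With a replicate block the number was 2 in the mean comparison, 1 under si46 and 2 under si47, the addition being DROSHA each time (adjusted p = 0.0238, 0.0203 and 0.0250, at log2 values of -0.21, -0.28 and -0.26); the cause was not tested. DGCR8 passed there too (adjusted p = 0.00794 in the mean comparison and 0.00713 under si47). Host genes called went from 4 to 7 with the block and to between 1 and 8 without 1 library. Regulators called went from 0 to 1 with DESeq2, 1 with limma-voom, 1 with no low-count filter, 4 with the block and between 0 and 5 without 1 library. Over all genes, 1014 were called in the mean comparison, 190 under si45, 482 under si46 and 1382 under si47, and with the block 1817, 577, 1073 and 2198. In the mean comparison the other settings that kept all libraries called 814 to 1817 of all genes, and fits without 1 library 629 to 1388. The counts for the lists are to be read beside these totals. Between siRNAs the counts were 4 (si46 against si45), 24 (si47 against si45) and 7 (si47 against si46), and 33, 398 and 108 with the block, which called 0 of the 10 genes there. Outside si45 and si47, same-numbered libraries correlated at 0.0188 to 0.247. Of the 8 libraries in each pair of groups, all 8 correlated best with their own number except for siNTC with si46 and with si47 (5 of 8 each), a hint from the data and not from the design.

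Some uncalled values near 0 changed sign, none with an adjusted p below 0.339 under any setting. TARBP2 became 0.001505 under si45 with limma-voom, and under si47 0.002078 (at least 10 counts in every library), 0.06162 (limma-voom), 0.007803 (replicate block) and 0.0004776 (upper-quartile factors). TNRC6A under si45 became 0.006034 (at least 10 counts), 0.006884 (no filter) and 0.00347 (only the groups compared). Without 1 library, log2 values ranged as follows. In the mean comparison AGO2 ran from -0.08319 to 0.06023, AGO3 from -0.0297 to 0.1176, TARBP2 from -0.2558 to 0.06915 and TNRC6A from -0.01437 to 0.02695. Under si45 AGO2 ran from -0.04193 to 0.1043, TARBP2 from -0.2449 to 0.07863, TNRC6A from -0.02535 to 0.02205, TNRC6B from -0.01629 to 0.07436 and XPO5 from -0.04669 to 0.08265. Under si46 AGO1 ran from -0.08274 to 0.02062, AGO2 from -0.0507 to 0.09137, AGO3 from -0.01697 to 0.1293, TNRC6A from -0.06984 to 0.03039, TNRC6B from -0.001334 to 0.07044 and XPO5 from -0.02751 to 0.1115. Under si47 AGO3 ran from -0.1026 to 0.04453, TARBP2 from -0.1866 to 0.1388 and TNRC6B from -0.04758 to 0.03675. DROSHA in si47 against si46 ran from -0.04918 to 0.07154. TARBP2 had the fewest counts of the 10 genes (77 to 145) and widely spread controls (19.99 ± 6.03 CPM, SD, n = 4). What sets the width of its interval was not tested.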
